A study of Mus musculus with 20 samples.

Results

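Endothelial cells of ear skin were compared between DNFB-treated and vehicle-treated ears of mice that overexpress an active Notch1 intracellular domain (NICD1) in their endothelium. By the sample titles, 8 of the 20 arrays of the series came from these NICD1-EC-OE mice, 4 from DNFB-treated and 4 from vehicle-treated ears, and no array of a control mouse entered the comparison. By the protocol, mice received 5 daily tamoxifen injections, which activate the recombinase, before the experiment began, were sensitised through the skin with DNFB (dinitrofluorobenzene, a hapten that elicits contact hypersensitivity), and had the ear pinna challenged with it on day 5. Ears were taken 24 hours after the challenge and digested with collagenase I, and CD31+CD45-Ter119- cells were sorted, a gate that keeps endothelial cells and excludes leukocytes and erythroid cells. Amplification started from 1 ng of total RNA.

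Several limits of the model come from the labels themselves. The genotype field gives Pdgfb-CreERT2; R26-NICD, whereas the growth protocol names RosaNICD/NICD and a CDH5-iCre line, so the labels leave the promoter of the recombinase unsettled. Both groups carry the transgene by their labels, so the comparison is of DNFB with vehicle within NICD1-EC-OE mice and does not measure the effect of NICD1. That protocol text stands for all samples, and it does not say whether vehicle-treated ears came from sensitised mice or from the other ear of a challenged mouse. Vehicle replicate 4 is a vehicle sample by its title but is described as DNFB-treated. It was kept as vehicle, and its score on the leading principal component was -43.5, among the other vehicle arrays (-44.3, -39.2 and -42.0) and away from the DNFB arrays (38.1 to 44.7).

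In contact hypersensitivity a small reactive chemical modifies skin proteins, and a later exposure recruits neutrophils and T cells into the skin. Endothelial cells take part by presenting chemokines and adhesion molecules to leukocytes and by opening their junctions to plasma. Notch receptors are cleaved when a ligand on a neighbouring cell binds them, and the freed intracellular domain joins the DNA-binding protein RBPJ to activate genes of the Hes and Hey families. In vessels Notch signalling keeps cells quiescent and favours arterial over venous and tip cell states.

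Arrays of a group resembled each other closely. Correlations between replicates ran from 0.980 to 0.984, against 0.948 to 0.957 between groups, and the leading component held 56.1% of the variance and separated the groups. The level below which a probe set cannot be told from background was set on each array at the 95th percentile of 1440 odorant, pheromone and taste receptor probe sets, genes not known to be active in these cells, and lay at 3.53 to 3.71 on the log2 scale. Differences are log2 values, DNFB minus vehicle, given ± 1 standard error (SE) from limma over 4 arrays a group, and "rose" and "fell" stand for an adjusted p under 0.05 over all 23521 probe sets with 1 gene symbol. In all, 22.3% of the probe sets passed, 11.7% (2747) higher and 10.6% (2495) lower, and 3.57% and 3.39% did so with a change of at least 2-fold. The DNFB arrays lay wholly above the vehicle arrays for 13.4% of the probe sets and wholly below them for 11.6%. Counted with 1 probe set per gene, 11.9% of 22180 genes rose and 10.7% fell, with a median difference of 0.013. Among the 12556 genes above background on at least 4 arrays these shares were 19.9% and 17.9%. The gene groups described here are set beside them. A gene could enter this set through 1 group alone, and the lists were not filtered in this way. Lists were also chosen with earlier results of these data known, so a share past these values is description and not a test.

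**Figure D1:**
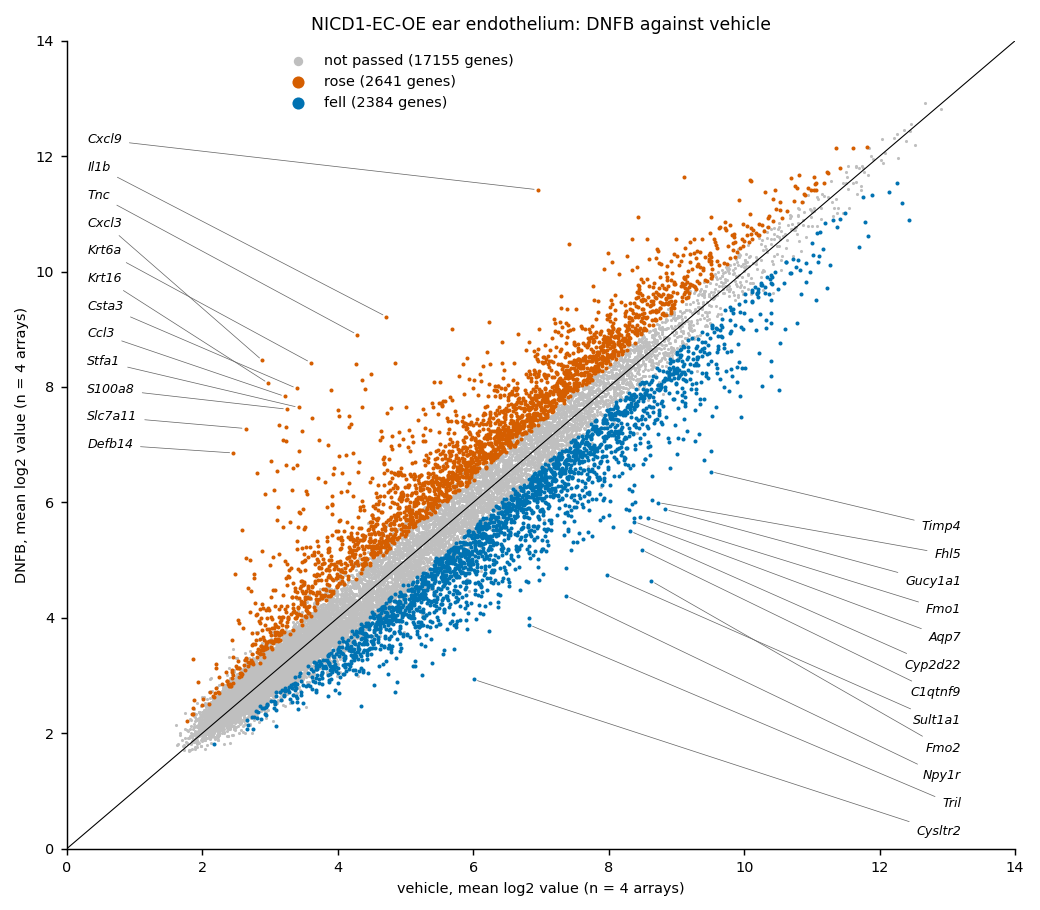
Mean log2 value of each gene in vehicle arrays (horizontal axis) and in DNFB arrays (vertical axis) of NICD1-EC-OE mice, n = 4 arrays a group, 1 point per gene. Genes that rose are orange, genes that fell are blue and the others grey, with the 12 largest fitted rises and the 12 largest fitted falls named (values at background included); Cxcl3 lies farthest above the diagonal and Fmo2 farthest below it.

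The 12 largest fitted rises, among genes whose groups did not overlap and whose DNFB arrays were all above background, were those of Cxcl3, Krt16, Krt6a, Slc7a11, Ccl3, Tnc, Csta3, Il1b, Cxcl9, Defb14, S100a8 and Stfa1. They are 3 chemokines, a cytokine, 2 stress keratins, 2 protease inhibitors of the stefin family, a defensin, a calgranulin, a cystine transporter and a matrix protein. For 4 of them (Slc7a11, Ccl3, Defb14 and S100a8) all vehicle arrays were at background and for others some were, so that their sizes are bounds or partly so and their order is not given by the data. The 12 largest fitted falls, among genes with all vehicle arrays above background, were those of Fmo2, C1qtnf9, Sult1a1, Cysltr2, Npy1r, Timp4, Gucy1a1, Tril, Fmo1, Cyp2d22, Fhl5 and Aqp7. They include 4 enzymes that metabolise drugs and other foreign compounds: Fmo2, Fmo1, Sult1a1 and Cyp2d22. Of the falls 4 belong to none of the lists described here. Cysltr2, a cysteinyl leukotriene receptor, stood at 6.73, 5.00, 6.29 and 6.02 in the vehicle arrays and at 3.28, 2.81, 2.33 and 3.30, all at background, in the DNFB arrays, lower by at least 2.40, and since its fall is known only as a bound it has no rank among them. The others were above background on all arrays except 1 DNFB array of Tril: the cytochrome Cyp2d22 went from 8.33, 8.41, 8.18 and 8.35 to 5.91, 5.27, 5.46 and 5.36 (-2.82 ± 0.15), the LIM protein Fhl5 from 9.13, 8.68, 8.35 and 8.74 to 6.16, 5.39, 5.74 and 6.70 (-2.73 ± 0.26) and Tril, an accessory protein of Toll-like receptors, from 7.22, 6.69, 6.49 and 6.91 to 3.66, 4.30, 3.48 and 4.06 (-2.95 ± 0.21).

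Levels of 3 genes tied to the labels were read, which is not a check of them. Without control arrays the level of Notch1 cannot show the transgene, and none of the 3 tells DNFB from vehicle. Notch1 stood at 9.78, 9.47, 9.78 and 9.83 in the vehicle arrays and at 9.80, 9.74, 9.63 and 9.87 in the DNFB arrays, and the groups overlapped (difference 0.04 ± 0.13, adjusted p 0.873). Whether this probe set covers the part of the transcript that the transgene carries was not tested. Both endothelial markers were far above background: Pecam1, which encodes the CD31 of the sort, averaged 11.72 ± 0.05 and 11.48 ± 0.07 (SD, n = 4) in vehicle and DNFB arrays, and Cdh5, the cadherin of endothelial junctions, 11.87 ± 0.11 and 12.01 ± 0.07. Neither difference passed (adjusted p 0.183 and 0.472).

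Transcripts of other cell types were also measured, and some moved with DNFB. Ptprc, which encodes the CD45 that the gate excludes, stood at 3.35, 3.37, 3.54 and 2.94 in the vehicle arrays, at background, and at 4.60, 5.85, 4.66 and 4.33 in the DNFB arrays, a rise of at least 1.25. Of 8 leukocyte markers 6 rose, and the mean level of the list ran from 4.25 to 4.42 in vehicle and from 5.22 to 5.64 in DNFB arrays. Neutrophil markers rose in 9 of 15 (list mean 3.23 to 3.44 in vehicle, 4.63 to 4.94 in DNFB arrays). The calprotectin subunit S100a8 went from 3.32, 3.10, 3.07 and 3.50 to 7.29, 7.74, 7.86 and 7.56 and rose by at least 4.00, and the chemokine receptor Cxcr2 rose by 2.15 ± 0.20. Myeloperoxidase (Mpo), Ltf and Camp, markers of neutrophil granules, were at background on all 8 arrays. Monocyte and macrophage markers rose in 9 of 18 (list mean 3.60 to 3.73 and 4.36 to 4.90), with Fcer1g up by 2.23 ± 0.19 and Itgam by 1.80 ± 0.20, while the macrophage genes Adgre1, C1qc, Ccr2 and Ms4a7 were at background throughout. Of 7 platelet markers 4 rose, led by Ppbp (from 3.85, 4.15, 3.65 and 5.12 to 7.43, 7.87, 6.74 and 7.37, 3.16 ± 0.31) and Pf4 (2.45 ± 0.34).

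Lymphocyte genes moved little. Of 13 T and NK cell markers 1 rose, granzyme B (Gzmb, at background in the vehicle arrays and at least 1.14 higher with DNFB), and 6, among them Cd3d and Cd8a, were at background on all arrays. Of the dendritic and Langerhans cell markers none rose and Zbtb46 fell by 0.49 ± 0.14, a call lost on leaving out any of 5 arrays. Among 8 mast cell markers only Hdc, the enzyme that makes histamine, passed (2.20 ± 0.25). Markers of resting keratinocytes were well above background in both groups: the basal keratin Krt14 stood at 10.68, 11.14, 11.42 and 11.08 in vehicle and 11.07, 11.75, 11.23 and 11.14 in DNFB arrays. Of 16 keratinocyte markers none rose and 3 fell (1 without vehicle replicate 4 or DNFB replicate 1), Krt15 by 1.79 ± 0.30, with list means of 6.66 to 7.18 and 6.41 to 6.88. Genes that keratinocytes and myeloid cells switch on under stress behaved otherwise: of 17 stress keratins, stefins, calgranulins and defensins 15 rose and none fell (median difference 3.31). Krt16 went from 3.21, 3.67, 2.59 and 2.40 to 7.77, 8.56, 8.11 and 7.83, and Krt6a rose by 4.82 ± 0.24 and the cystatin-type protease inhibitors Csta3 and Stfa1 by 4.58 ± 0.28 and 4.22 ± 0.39. Defb14, a beta-defensin, rose by at least 3.24. Pericyte and smooth muscle markers moved the other way: 10 of 14 fell and none rose (list mean 8.08 to 8.19 in vehicle, 7.03 to 7.41 in DNFB arrays), with Higd1b decreased by 2.51 ± 0.15, Kcnj8 by 1.68 ± 0.20 and Rgs5 by 1.56 ± 0.17, whereas the contractile gene Acta2 differed by -0.05 ± 0.13 without passing. Fibroblast markers were split, 2 higher and 3 lower of 12, with 1 to 4 higher on leaving out arrays in turn. No member of the erythroid (3 measured), adipocyte (6), skeletal muscle (8) or chondrocyte (8) lists passed, and 1 of 8 Schwann cell and melanocyte markers did (S100b, at background on every array). Because sorted bulk RNA was measured, fewer cells of a type and less RNA per cell cannot be told apart, and the part of these other cells in the results that follow was not tested.

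**Figure D2:**
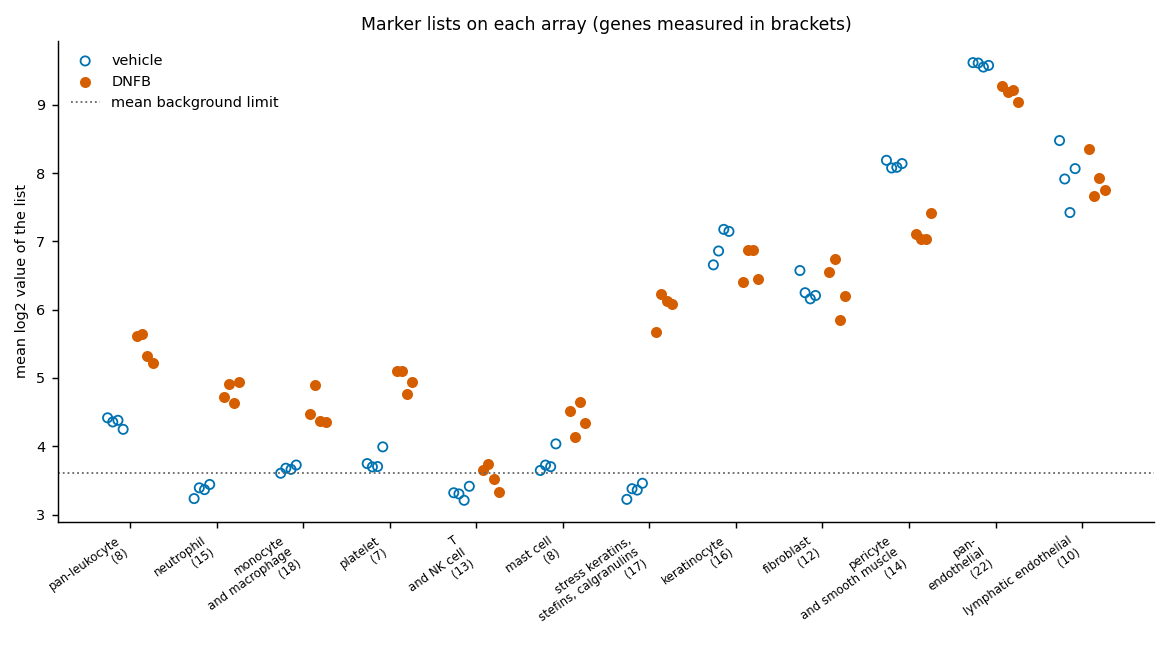
Mean log2 value of each marker list on each of the 8 arrays of NICD1-EC-OE mice (vertical axis; open circles, vehicle; filled circles, DNFB; n = 4 a group). Leukocyte, neutrophil, macrophage, platelet, mast cell and stress keratin lists were higher on every DNFB array than on any vehicle array, pericyte and pan-endothelial lists were lower on every one, and T cell, resting keratinocyte, fibroblast and lymphatic lists overlapped.

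Most neutrophil-attracting chemokines rose. CXC chemokines with a Glu-Leu-Arg (ELR) motif bind CXCR2 and attract neutrophils, and 5 of the 6 measured rose (median difference 3.21, or 3.01 with arrays at background set to their limits), Cxcl15 being at background. Cxcl3 stood at 1.88, 4.03, 2.72 and 2.90 in the vehicle arrays and at 8.41, 8.22, 9.01 and 8.20 in the DNFB arrays. Vehicle replicate 2 was the only vehicle array above the background limit, and the groups did not overlap (fitted difference 5.58 ± 0.37, adjusted p 2.26e-06). With the 3 arrays at background set to their limits the rise was 4.75. Cxcl2 went from 3.33, 4.12, 2.84 and 3.29 to 6.24, 7.20, 6.62 and 6.52 and rose by 3.25 ± 0.27 (2.92 with its 3 vehicle arrays at background set to their limits). Cxcl1, already above background without DNFB, went from 6.17, 6.56, 6.02 and 6.16 to 7.81, 8.04, 7.79 and 8.57 and rose by 1.83 ± 0.19, the smallest rise of the 5. Cxcl5 rose by at least 3.10 from vehicle arrays that were all at background, and platelet-expressed Ppbp is described with the platelet markers. Neutrophil markers rose on the same arrays, as given above.

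Cxcl1, Cxcl2 and Cxcl3 are neighbours on chromosome 5, and their promoters are shown because these genes rose together and each holds 1 match to a binding motif of NF-kB, the transcription factor of the inflammatory response. Each sequence runs 5′ to 3′ on the gene's strand from 250 bases before to 50 bases after the start, from RefSeq (GRCm38.p6), and capitals mark the match. Cxcl10, which lies on the minus strand farther along the same chromosome, is shown beside them. The windows are Cxcl1 at chr5:90890995-90891294 (+), Cxcl2 at chr5:90903649-90903948 (+), Cxcl3 at chr5:90785851-90786150 (+) and Cxcl10 at chr5:92348840-92349139 (-).
Cxcl1: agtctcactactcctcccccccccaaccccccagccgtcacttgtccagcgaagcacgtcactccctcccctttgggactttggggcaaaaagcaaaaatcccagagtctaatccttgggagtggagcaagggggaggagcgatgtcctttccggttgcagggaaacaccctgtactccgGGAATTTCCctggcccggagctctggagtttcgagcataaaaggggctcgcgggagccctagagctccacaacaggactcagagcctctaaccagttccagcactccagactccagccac
Cxcl2: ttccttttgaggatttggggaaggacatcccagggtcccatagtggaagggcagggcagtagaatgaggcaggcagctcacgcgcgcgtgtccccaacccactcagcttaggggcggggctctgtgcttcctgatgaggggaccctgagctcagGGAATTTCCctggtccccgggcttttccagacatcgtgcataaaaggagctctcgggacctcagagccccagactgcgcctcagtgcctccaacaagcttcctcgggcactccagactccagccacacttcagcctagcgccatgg
Cxcl3: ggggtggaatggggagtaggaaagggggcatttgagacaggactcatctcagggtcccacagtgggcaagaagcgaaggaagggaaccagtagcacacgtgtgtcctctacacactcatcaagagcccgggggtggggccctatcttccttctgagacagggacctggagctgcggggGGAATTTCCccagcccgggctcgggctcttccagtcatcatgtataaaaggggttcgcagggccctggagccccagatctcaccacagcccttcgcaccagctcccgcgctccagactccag
Cxcl10: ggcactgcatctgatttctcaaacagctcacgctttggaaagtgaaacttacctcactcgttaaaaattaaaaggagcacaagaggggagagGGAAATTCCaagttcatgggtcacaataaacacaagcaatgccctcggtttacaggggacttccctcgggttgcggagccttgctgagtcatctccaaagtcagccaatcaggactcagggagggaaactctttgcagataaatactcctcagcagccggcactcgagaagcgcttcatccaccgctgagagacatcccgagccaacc
The motif searched was GGANTTTCC or GGAAATTCC on either strand, the latter being the reverse complement of the former with A at its open base. It was found in 1.35% of 20520 promoters of the same length, in 3.39% of those of genes that rose at least 2-fold and in 1.08% of those of genes that fell at least 2-fold. In the shown promoters of Cxcl1 and Cxcl3 the match begins 70 and 72 bases from the start, and in Cxcl2 and Cxcl10 96 and 158 bases. The promoters of Ppbp, Cxcl9, Il1b, Tnf and Ptgs2, which rose, held no match. Those of Nfkbia, which did not pass, and of Tgfbr2 and Btg2, which fell, did hold the motif. A match describes the letters and not binding.

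Chemokines that bind CXCR3 on T and NK cells rose as well. Cxcl9 went from 5.97, 6.69, 7.58 and 7.56 to 11.18, 11.45, 11.71 and 11.33 (4.47 ± 0.31), with vehicle replicate 1 the lowest array and all DNFB arrays above every vehicle array. Cxcl10 rose by at least 3.62, and Cxcl11 by 1.37 ± 0.18. Of the other non-ELR genes, Cxcl14 rose by 2.59 ± 0.34 and the membrane-bound chemokine Cxcl16 by 1.64 ± 0.12, while Cxcl12, which retains stem cells and lymphocytes, fell by 1.07 ± 0.15. Among 16 CC chemokines 8 rose and none fell. Ccl3 rose by at least 4.22, Ccl2, the main monocyte attractant, went from 4.23, 5.41, 4.26 and 5.49 to 8.62, 8.46, 8.06 and 8.52 (3.57 ± 0.29), and Ccl7 rose by 3.14 ± 0.29. Ccl5 rose by 1.49 ± 0.26, and Ccl11, an eosinophil attractant, did not pass (0.34 ± 0.17, adjusted p 0.187). Of 5 atypical receptors, which bind chemokines without signalling migration, only Ackr2, a scavenger of CC chemokines found on lymphatic endothelium, rose, by 1.56 ± 0.32. The venular receptor Ackr1 differed by 0.26 ± 0.17 (adjusted p 0.337).

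**Figure D3:**
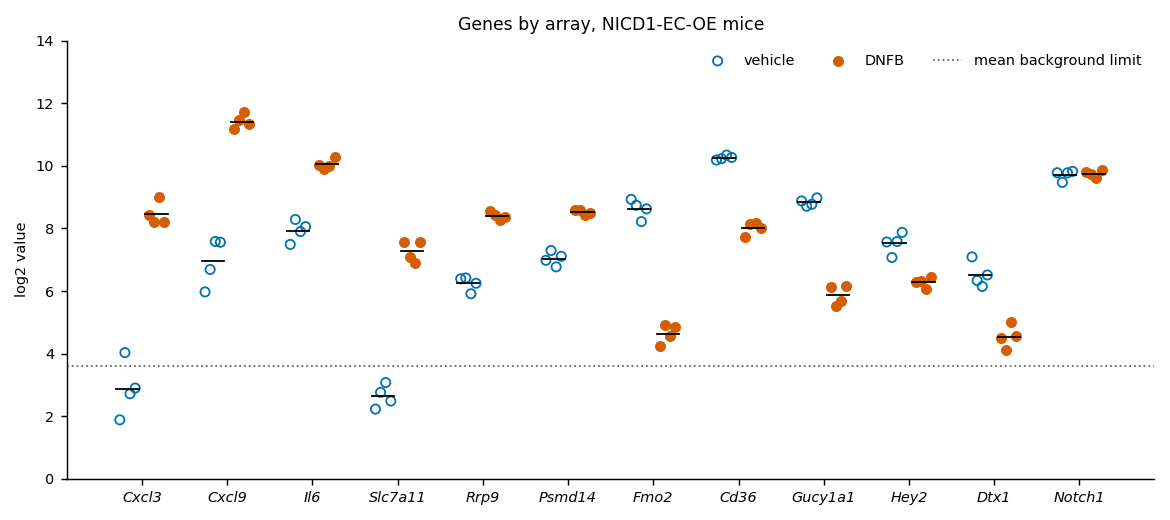
Log2 value of 12 genes on each array of NICD1-EC-OE mice (open circles, vehicle; filled circles, DNFB; bars, group mean; n = 4 a group; dotted line, mean background limit of the 8 arrays). Cxcl3, Cxcl9, Il6, Slc7a11, Rrp9 and Psmd14 were higher and Fmo2, Cd36, Gucy1a1, Hey2 and Dtx1 lower on every DNFB array, while Notch1 overlapped.

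Several cytokines rose. Of 33 cytokines and growth factors 13 rose and 2 fell, with 6 at background on all arrays. Il1b went from 4.88, 5.62, 4.50 and 3.85 to 9.16, 9.82, 8.72 and 9.18 (4.51 ± 0.33), and Il1a and Il1f9, which encodes interleukin-36 gamma, rose by 3.16 ± 0.34 and 3.35 ± 0.31 (2.60 and 3.11 with vehicle arrays at background, 3 and 2, set to their limits). Il6 was well above background in vehicle arrays, at 7.49, 8.29, 7.90 and 8.06, and reached 10.01, 9.91, 9.98 and 10.28 (2.11 ± 0.17). Csf3, the granulocyte growth factor, went from 4.89, 6.81, 5.95 and 5.78 to 7.89, 7.93, 8.06 and 7.61 (2.02 ± 0.31), with vehicle replicate 1 below the other vehicle arrays. Il11 rose by at least 2.08 from background and Tnf by 3.26 ± 0.36, or 2.98 with its 3 vehicle arrays at background set to their limits. Interferon-gamma, Il17a, Csf2 and Ifnb1 were at background on every array. Il34, a CSF1 receptor ligand, fell by 1.85 ± 0.15 and Tnfsf10, which encodes TRAIL, fell by 1.17 ± 0.18. Il15 differed by 0.41 ± 0.14 and did not pass (adjusted p 0.0551), though it did when only genes above background were tested (adjusted p 0.0275).

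Receptors divided evenly, 8 higher and 6 lower of 27, beside 19.9% and 17.9% of all genes above background. The interleukin-1 antagonist Il1rn rose by 2.08 ± 0.26 and the TWEAK receptor Tnfrsf12a by 1.86 ± 0.20, and the interleukin-4 receptor chain Il4ra rose by 1.27 ± 0.16. Falls were seen for Il10rb (decreased by 1.25 ± 0.14), the interferon receptor chain Ifnar1 (by 1.00 ± 0.14) and Lifr (by 0.80 ± 0.12). Of 21 NF-kB subunits and feedback genes 6 rose and 1 fell. Tnfaip2 rose by 2.23 ± 0.19, Tnip1 by 1.30 ± 0.16 and Nfkb2 by 0.84 ± 0.17, while the inhibitors Nfkbia and Tnfaip3 differed by 0.02 ± 0.13 and 0.12 ± 0.16 without passing. In the STAT3 feedback list 5 of 11 rose, among them Socs1 (1.31 ± 0.15) and Socs3 (0.82 ± 0.17). Acute phase and complement genes rose in 10 of 19 and fell in 1 (median difference 0.66): serum amyloid Saa3 rose by at least 3.03, the metallothionein Mt2 by 1.71 ± 0.19 and the protease inhibitor Serpina3n by 1.63 ± 0.29, and Cd59a, which blocks the complement pore, fell by 1.13 ± 0.16.

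Adhesion molecules for leukocytes did not move as a block. Of 22 measured, 4 rose, 4 fell and 14 did not pass. The shares that rose and fell were near those of all genes above background, 19.9% and 17.9%. Vcam1, the ligand of the integrin VLA-4, went from 4.65, 5.26, 4.57 and 4.72 to 6.35, 7.33, 7.34 and 6.65, with no overlap (2.12 ± 0.24, adjusted p 7.95e-05). The hyaluronan receptor Cd44 rose by 2.25 ± 0.15, Pvr by 1.41 ± 0.14 and Alcam by 1.40 ± 0.18. E-selectin was high in both groups: Sele stood at 11.23, 11.89, 11.37 and 11.70 in vehicle and 11.15, 11.29, 11.06 and 10.88 in DNFB arrays, overlapping through vehicle replicate 1 (-0.45 ± 0.17, adjusted p 0.0797). Sele passed, as lower with DNFB, when only genes above background were tested (adjusted p 0.0464). Icam1 stood at 9.98, 10.68, 10.12 and 10.35 and 10.46, 10.51, 10.19 and 10.31, overlapping fully (0.09 ± 0.17). Jam2, a junctional adhesion molecule, fell by 1.19 ± 0.13 and Esam fell by 0.72 ± 0.14. The count of falls became 7 after cyclic loess.

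Of 23 junction genes 8 fell, 2 rose and 13 did not pass (median difference -0.35). The polarity protein Pard6g fell by 1.71 ± 0.20, the scaffold Tjp1, which encodes ZO-1, fell by 1.40 ± 0.15 and the tight junction claudin Cldn5 fell by 1.15 ± 0.16. The receptor phosphatase Ptprb, which restrains the receptors Tie2 and VEGFR2, fell by 0.80 ± 0.13. The arterial connexin Gja5, higher by 0.81 ± 0.22, had overlapping groups and lost its call on leaving out any of 3 arrays in turn (vehicle replicate 4, DNFB replicates 2 and 3). Without DNFB replicate 1, 5 junction genes fell. Cdh5 itself, given above, did not pass.

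Notch pathway genes fell or did not pass, and none of the 35 measured rose. Among the receptors Notch3, also a pericyte marker, fell, from 8.72, 8.59, 8.68 and 8.87 to 7.10, 7.31, 7.61 and 7.80 (-1.26 ± 0.16), and Notch1, Notch2 and Notch4 did not pass (differences 0.04 ± 0.13, 0.02 ± 0.14 and 0.24 ± 0.13). Of the ligands Jag2 fell by 0.84 ± 0.12, Dlk1 fell by 0.82 ± 0.16 and Jag1 fell by 0.51 ± 0.15. Dll4, the main endothelial ligand, and Dll1 did not pass (-0.05 ± 0.13 and 0.33 ± 0.18).

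Of 10 Notch targets 6 fell (median difference -0.47). Hey2, a repressor of the Hey family, went from 7.57, 7.07, 7.58 and 7.88 to 6.28, 6.31, 6.07 and 6.44 with no overlap (-1.25 ± 0.17, adjusted p 0.000304). Dtx1, a ubiquitin ligase that binds Notch, fell most, from 7.09, 6.34, 6.15 and 6.51 to 4.50, 4.11, 5.00 and 4.57 (-1.97 ± 0.23). Gata2, a transcription factor of endothelial and blood progenitors, fell by 0.68 ± 0.14, Hes1 fell by 0.76 ± 0.16, and Hey1 went from 10.12, 10.33, 10.12 and 10.07 to 9.92, 9.78, 9.59 and 9.66, a small fall with no overlap (-0.42 ± 0.13, adjusted p 0.0347). Heyl was near the threshold and overlapped between the groups (-0.51 ± 0.17, adjusted p 0.0473). When each of the 8 arrays was left out in turn, Hey1 and Heyl lost their calls in 7 of the fits and Jag1 in 4, vehicle replicate 4 among the arrays for each (adjusted p 0.0506, 0.128 and 0.0716 without it). Nrarp, a feedback inhibitor that NICD induces directly, differed by -0.05 ± 0.16 (adjusted p 0.881), and Efnb2, Bcl6b and Hes5 did not pass either (0.04 ± 0.13, 0.14 ± 0.14 and 0.06 ± 0.24). Among 16 modulators 6 fell: the glycosyltransferases Mfng and Lfng, which tune the affinity of Notch for its ligands, fell by 1.35 ± 0.18 and 1.18 ± 0.12, Dtx4 fell by 1.53 ± 0.13, the gamma-secretase subunit Psen2 fell by 0.71 ± 0.14, and the coactivators Maml2 and Maml3 fell by 1.13 ± 0.15 and 0.94 ± 0.16. Rbpj, the DNA-binding partner of NICD, did not pass (-0.01 ± 0.15), nor did the other 9 modulators, among them the receptor protease Adam10 (-0.35 ± 0.15).

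The promoters of Hey2 and Lfng are shown because both genes fell and hold the core letters that RBPJ recognises, GTGGGAA on either strand, marked by capitals. They lie at chr10:30842734-30843033 (-) and chr5:140607091-140607390 (+) (RefSeq, GRCm38.p6), with 2 matches in Hey2 and 1 in Lfng.
Hey2: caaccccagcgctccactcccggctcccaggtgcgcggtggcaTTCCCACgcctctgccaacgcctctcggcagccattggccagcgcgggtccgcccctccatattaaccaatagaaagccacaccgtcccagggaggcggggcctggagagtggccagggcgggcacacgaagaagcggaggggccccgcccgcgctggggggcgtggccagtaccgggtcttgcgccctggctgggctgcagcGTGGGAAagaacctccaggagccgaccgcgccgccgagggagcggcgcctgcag
Lfng: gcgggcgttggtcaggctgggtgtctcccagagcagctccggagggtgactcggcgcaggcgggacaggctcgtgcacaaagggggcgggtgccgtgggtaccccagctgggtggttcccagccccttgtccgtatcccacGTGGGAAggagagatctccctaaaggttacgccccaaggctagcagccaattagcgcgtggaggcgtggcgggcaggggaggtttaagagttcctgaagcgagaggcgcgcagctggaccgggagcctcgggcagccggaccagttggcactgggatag
These letters were found in 6.18% of all promoters of this length, 6.37% of those of genes that rose at least 2-fold and 7.31% of those of genes that fell at least 2-fold. Of 7 promoters of Notch targets 2 held them, those of Hey2 and Hes5, and Hes5 did not pass. The promoter of Dtx1, the target that fell most, held none. Among the modulators, Psen2, which fell, and Aph1a, which did not pass, also held them in a promoter.

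**Figure D4:**
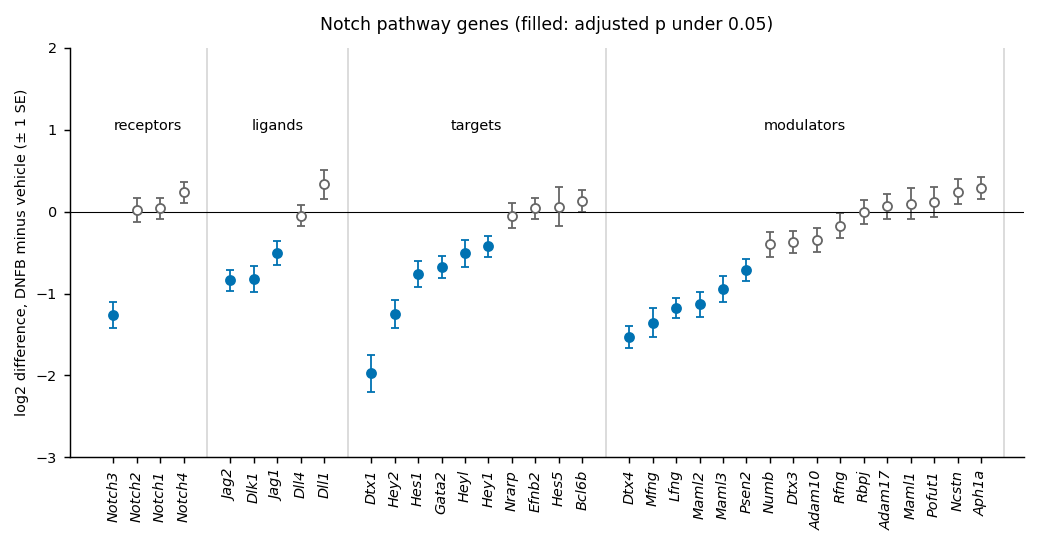
Log2 difference, DNFB minus vehicle, of each measured Notch receptor, ligand, target and modulator in NICD1-EC-OE mice (points, difference; bars, ± 1 SE; n = 4 arrays a group; filled, adjusted p under 0.05). No gene passed above 0, and Dtx1, Dtx4, Mfng, Notch3, Hey2 and Lfng lay lowest.

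Capillary genes mostly fell. Of 27 capillary genes 19 fell and 1 rose (median difference -0.87, list mean 8.57 to 8.62 in vehicle and 7.47 to 7.67 in DNFB arrays). The adipokine-like C1qtnf9 went from 8.35, 8.69, 8.63 and 8.29 to 5.11, 5.13, 5.40 and 5.05 (-3.31 ± 0.14), and the protease inhibitor Timp4 from 9.74, 9.56, 9.46 and 9.29 to 6.37, 6.53, 6.67 and 6.55 (-2.98 ± 0.14). The dimmer probe set of C1qtnf9 also fell, but by far less, so the size of its fall depends on the probe set. Some genes of fatty acid uptake fell, picked from the list after their values were seen: the translocase Cd36 went from 10.19, 10.23, 10.35 and 10.27 to 7.72, 8.15, 8.16 and 8.01 (-2.25 ± 0.13), the lipase Lpl fell by 2.10 ± 0.24, Gpihbp1, which holds that lipase on the vessel wall, fell by 1.18 ± 0.18 and the carrier Fabp4 fell by 0.72 ± 0.13. The carrier Fabp5, of the same list, passed on none of its 4 probe sets (differences -0.22 to 0.11). Aqp7, a channel for glycerol, fell by 2.71 ± 0.21, and the caveolar gene Cavin2 fell by 1.95 ± 0.12. The exception was Car4, a carbonic anhydrase of the capillary surface, which went from 8.14, 7.76, 8.72 and 8.74 to 10.44, 10.65, 10.92 and 10.27 (2.23 ± 0.23). Pericyte markers, given above, fell on the same arrays.

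Arterial genes fell in 13 and rose in 4 of 25. The kinase Bmx fell by 1.71 ± 0.18, the chemokine receptor Cxcr4 fell by 1.60 ± 0.16, the VEGF co-receptor Nrp1 fell by 1.18 ± 0.13 and the transcription factor Sox17 fell by 1.10 ± 0.16. Rises included Igfbp3 (0.76 ± 0.13) and the lymphangiogenic ligand Vegfc (0.77 ± 0.20), the latter with groups that overlapped. Of 14 venous genes 5 fell and 2 rose, the rises being Vcam1 and Ccl9. The venous transcription factor Nr2f2 fell by 1.10 ± 0.15, the apelin receptor Aplnr fell by 1.39 ± 0.26 and von Willebrand factor (Vwf) fell by 1.30 ± 0.12. Lymphatic markers were mixed: podoplanin (Pdpn) rose by 1.70 ± 0.21 and neurotensin (Nts) went from 5.20, 4.37, 4.63 and 4.34 to 7.78, 7.06, 7.17 and 6.95 (2.61 ± 0.23), Fxyd6 fell by 1.65 ± 0.17, and Prox1, the transcription factor that defines the lineage, did not pass (-0.73 ± 0.26, adjusted p 0.0658), though it passed as lower when only genes above background were tested (adjusted p 0.0443). Without vehicle replicate 3, 5 of the 10 lymphatic genes fell, and without DNFB replicate 1, 3. Of 22 pan-endothelial markers 9 fell and 3 rose (list mean 9.55 to 9.62 in vehicle and 9.03 to 9.27 in DNFB arrays), with Clec14a decreased by 1.56 ± 0.13 and the angiopoietin receptor Tek by 1.45 ± 0.12, and with Ecscr and Eng higher by 0.64 ± 0.12 and 0.55 ± 0.11.

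Endothelial transcription factors were lower in 12 of 28 and higher in 1, Etv6 (0.90 ± 0.12). Klf2 and Klf4, which flow induces in quiescent endothelium, fell by 0.77 ± 0.19 and 0.78 ± 0.13, Fli1 fell by 0.96 ± 0.13 and Klf9 fell by 1.34 ± 0.14, while Erg did not pass (-0.32 ± 0.16). Among 17 VEGF and angiopoietin genes 5 rose and 6 fell. The ligands Angpt2, Pgf and Vegfa rose by 1.06 ± 0.16, 1.05 ± 0.16 and 0.90 ± 0.23, and Angpt1, which stabilises vessels, fell by 1.19 ± 0.27. Tip cell genes were split by member, 9 higher and 4 lower of 20: the urokinase receptor Plaur rose by 2.52 ± 0.15 and Apln by 2.12 ± 0.28, while Esm1, a tip cell proteoglycan, fell by 1.58 ± 0.28. Guidance genes rose in 3 and fell in 6 of 23, beside 19.9% and 17.9% of all genes above background. Sema3f and Sema3a were higher by 1.31 ± 0.13 and 1.34 ± 0.21, and Epha4 was decreased by 1.13 ± 0.16.

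In the BMP and TGF-beta pathway 8 of 33 genes rose and 8 fell. Among all genes above background on at least 4 arrays, 19.9% rose and 17.9% fell. The ligands Bmp4, Bmp2 and Inhbb rose by 1.86 ± 0.25, 1.70 ± 0.15 and 2.05 ± 0.14, the activin antagonist Fst rose by 1.91 ± 0.23, and Bmp6 fell by 1.41 ± 0.17. The receptors Tgfbr3 and Tgfbr2 fell by 1.51 ± 0.14 and 1.11 ± 0.14, and the transducer Smad1 fell by 1.00 ± 0.13. The target Id3 did not pass (-0.11 ± 0.13).

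Receptors for vasoactive signals were lower in 13 and higher in 5 of 28 (median difference -0.45). Gucy1a1, a subunit of the nitric oxide receptor guanylate cyclase, went from 8.88, 8.71, 8.77 and 8.98 to 6.13, 5.53, 5.69 and 6.15 (-2.96 ± 0.16), and its partner Gucy1b1 fell by 1.75 ± 0.14. These subunits are also expressed by pericytes and smooth muscle, whose markers fell. The neuropeptide Y receptor Npy1r went from 7.22, 7.28, 7.63 and 7.37 to 4.27, 4.41, 4.51 and 4.33 (-2.99 ± 0.13), Npr3, a receptor for natriuretic peptides, fell by 2.67 ± 0.18, and angiotensin-converting enzyme (Ace) fell by 1.62 ± 0.12. The endothelin receptor Ednrb moved the other way, from 7.28, 7.72, 6.99 and 7.20 to 9.47, 9.27, 9.18 and 9.58 (2.08 ± 0.17), as did the nitric oxide synthase Nos3 (0.98 ± 0.12) and the sphingosine phosphate receptor S1pr3 (1.10 ± 0.21).

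Coagulation genes rose in 9 and fell in 1 of 20. Rises were found on both sides of the balance: tissue factor (F3), which starts clotting, rose by 2.18 ± 0.17, the protein C receptor Procr, which restrains it, by 1.76 ± 0.15, the inhibitor Tfpi2 by 1.70 ± 0.19, and urokinase (Plau) and its receptor (Plaur) by 2.21 ± 0.14 and 2.52 ± 0.15. Thrombomodulin (Thbd) did not pass (-0.26 ± 0.14). In the prostanoid list 7 rose and 1 fell of 21. The inducible cyclooxygenase Ptgs2 went from 3.05, 3.62, 3.20 and 2.56, all at background, to 6.66, 7.11, 5.98 and 6.45, a rise of at least 2.93. Prostacyclin synthase (Ptgis) rose by 1.55 ± 0.23 and the prostaglandin transporter Slco2a1 by 1.50 ± 0.14, and the gene that fell, the receptor Ptger2, was above background on only 1 array.

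Genes of the answer to electrophiles and oxidants rose as a group. In general the factor NRF2 (Nfe2l2) drives such genes when reactive chemicals modify its inhibitor KEAP1. Of 21 measured here 15 rose and 1, Gstm1, fell (median difference 0.95). NRF2 activity was not measured, and the cause of these rises was not tested. The cystine transporter Slc7a11 went from 2.23, 2.76, 3.08 and 2.48, all at background, to 7.56, 7.09, 6.90 and 7.57, a rise of at least 3.67. Heme oxygenase (Hmox1) went from 6.35, 6.70, 5.91 and 5.94 to 9.13, 9.12, 8.93 and 9.32 (2.90 ± 0.18) and sulfiredoxin (Srxn1) from 4.75, 4.91, 4.96 and 4.59 to 7.05, 7.03, 7.29 and 7.24 (2.35 ± 0.13). For these genes every DNFB array lay above every vehicle array. Thioredoxin reductase (Txnrd1) rose by 1.80 ± 0.16, the glutathione synthesis subunit Gclm by 1.61 ± 0.15 and the quinone reductase Nqo1 by 0.95 ± 0.17. Nfe2l2 itself did not pass (0.04 ± 0.13).

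The promoter of Srxn1, at chr2:152105274-152105573 (+) (RefSeq, GRCm38.p6), is shown as an example, since it holds the antioxidant response letters TGANTNAGC, marked by capitals.
Srxn1: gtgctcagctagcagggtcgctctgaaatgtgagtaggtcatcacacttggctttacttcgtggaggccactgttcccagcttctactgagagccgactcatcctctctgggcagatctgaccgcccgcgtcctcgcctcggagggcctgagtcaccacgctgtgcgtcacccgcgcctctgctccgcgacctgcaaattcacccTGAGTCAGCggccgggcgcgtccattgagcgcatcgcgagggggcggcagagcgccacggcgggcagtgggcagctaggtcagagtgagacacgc
These letters were found in 3.28% of all promoters of this length, 6.5% of those of genes that rose at least 2-fold and 2.57% of those of genes that fell at least 2-fold. Srxn1 is not typical of its list, in which 3 of 23 promoters (13%) held them. The promoters of Slc7a11, Gclm and Txnrd1 held none. A site with C as the second open base also holds the AP-1 motif TGANTCA, which was found in 7.24%, 9.35% and 6.5%. The hypoxia motif (GACGTG or TACGTG) was found in 10.4%, 14.2% and 8.66%, and the interferon motif GAAANNGAA in 8.05%, 9.35% and 7.31%.

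Drug-metabolising enzymes of the resting state fell: 12 of 23 fell and 1 rose (median difference -0.60). The flavin monooxygenase Fmo2 went from 8.93, 8.74, 8.22 and 8.63 to 4.23, 4.92, 4.55 and 4.84 (-3.99 ± 0.19), and its paralog Fmo1 fell by 2.86 ± 0.14. The sulfotransferase Sult1a1 fell by 3.23 ± 0.19 and the epoxide hydrolase Ephx1 fell by 2.21 ± 0.13. The aryl hydrocarbon receptor (Ahr) fell by 0.60 ± 0.14, and its targets Cyp1a1 and Tiparp did not pass (-0.52 ± 0.22 and -0.31 ± 0.19). Without vehicle replicate 4, Cyp1a1 passed as lower (-0.72, adjusted p 0.0151).

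Genes of the unfolded protein response mostly rose. Of 20 genes 15 rose and 1 fell (median difference 0.71): Sdf2l1 and Hyou1, chaperone partners in the endoplasmic reticulum, rose by 2.40 ± 0.23 and 1.63 ± 0.20, and the chaperone Hspa5 by 0.72 ± 0.12. The integrated stress response was split, 7 higher and 2 lower of 18. Its amino acid and folate enzymes Mthfd2, Asns and Aldh18a1 rose by 2.38 ± 0.20, 1.99 ± 0.12 and 1.93 ± 0.18, and Ddit4, an inhibitor of mTORC1, fell by 1.25 ± 0.17. Of 24 amino acid transporters 8 rose, among them Slc38a1 (2.16 ± 0.19), the arginine carrier Slc7a1 (1.66 ± 0.14) and the leucine carrier Slc7a5 (1.12 ± 0.22), and 3 fell. Heat shock genes passed in 3 and 1 of 11: the mitochondrial chaperonins Hspd1 and Hspe1 rose by 1.09 ± 0.13 and 0.89 ± 0.15, and Hspb1 fell by 0.71 ± 0.14. Immediate early genes fell in 9 and rose in 1 of 24, a count that became 14 when only genes above background were tested, with Btg2 decreased by 1.22 ± 0.18, Fosb by 1.10 ± 0.17 and Fos by 1.00 ± 0.13.

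Glycolysis genes rose in 10 and fell in 1 of 17 (median difference 0.52), and 6 rose when p was adjusted over all probe sets of the table. Pgk1 rose by 1.97 ± 0.15, the lactate carrier Slc16a1 by 1.83 ± 0.19 and Pkm by 1.34 ± 0.13, whereas Pfkfb3, whose product drives glycolysis in sprouting endothelium, fell by 0.79 ± 0.19. Hypoxia genes did not follow: 4 rose and 6 fell of 14, with Hif1a and Vegfa higher by 0.76 ± 0.12 and 0.90 ± 0.23. Bnip3 went from 6.16, 6.06, 6.16 and 5.90 to 4.37, 4.50, 4.34 and 4.35 (-1.68 ± 0.12) and Egln3 fell by 1.34 ± 0.22. Oxidative phosphorylation subunits rose in 17 of 33 and fell in none (median difference 0.46), led by cytochrome c (Cycs, 1.13 ± 0.13) and Cox5a (0.95 ± 0.13).

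Genes for making ribosomes and proteasomes gave the most uniform rises among the lists. All 24 measured ribosome biogenesis factors rose, with a median difference of 1.39 and a range from 0.73 (Npm1) to 2.16 (Rrp9). Rrp9, a protein of a small nucleolar particle that cuts rRNA, went from 6.39, 6.42, 5.91 and 6.25 to 8.56, 8.42, 8.27 and 8.37. The list mean ran from 6.93 to 6.97 in vehicle and from 8.30 to 8.42 in DNFB arrays, so that the spread within a group was small beside the step. Nop2, an rRNA methyltransferase, rose by 1.84 ± 0.14 and nucleolin (Ncl) by 1.13 ± 0.13. Myc, which drives this program in growing cells, did not pass (-0.20 ± 0.17, adjusted p 0.472).

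Of 32 constitutive proteasome subunits and regulators 30 rose and none fell (median difference 1.02, list mean 8.01 to 8.21 and 9.02 to 9.13). The lid deubiquitinase Psmd14 went from 6.98, 7.29, 6.77 and 7.11 to 8.59, 8.58, 8.42 and 8.49 (1.48 ± 0.14), and the base ATPase Psmc4 rose by 1.39 ± 0.12. Psma5, at background on 7 arrays, and the activator Psme4 were the exceptions.

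**Figure D5:**
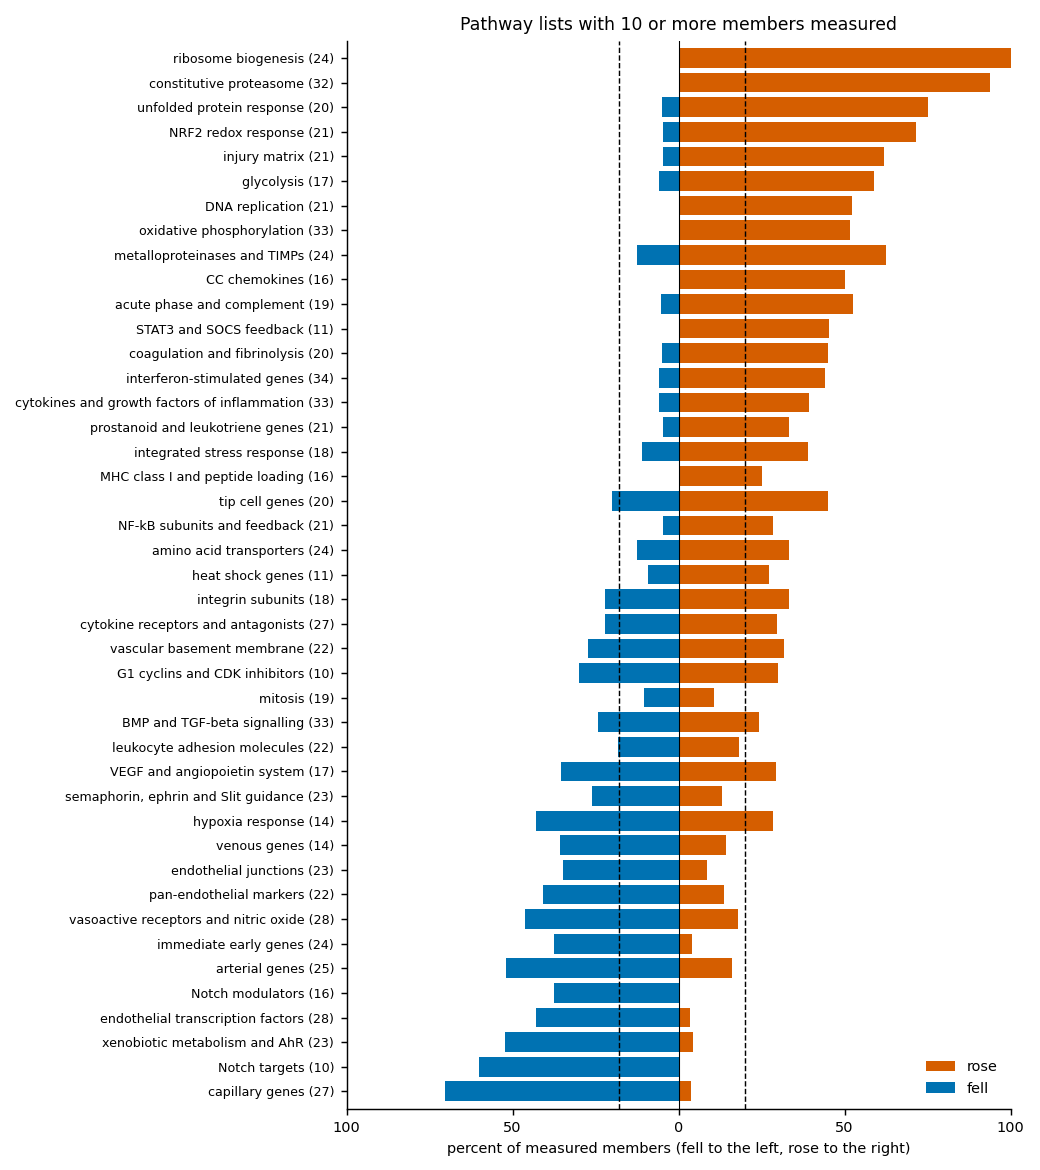
Share of the measured members that rose (right, orange) and fell (left, blue) with DNFB in NICD1-EC-OE mice, in percent. Pathway lists with at least 10 measured members are shown, with the number measured beside each name. Vertical lines mark the shares among all genes above background on at least 4 arrays, 19.9% higher and 17.9% lower; ribosome biogenesis and the proteasome reach farthest right and capillary genes farthest left.

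Replication genes rose, and few mitotic genes passed. Of 21 replication genes 11 rose and none fell, among them the helicase subunits Mcm5 (1.38 ± 0.19) and Mcm2 (1.33 ± 0.20), the chromatin factor Uhrf1 (1.41 ± 0.16) and Gins2 (1.50 ± 0.16). Of 19 mitotic genes 2 rose, Tpx2 (0.66 ± 0.18) and Top2a (0.71 ± 0.22, with overlapping groups), and 2 fell, Cenpa and Nusap1 (decreased by 0.85 ± 0.18 and 0.46 ± 0.15), while Mki67 did not pass (-0.17 ± 0.18). Leaving out arrays in turn, Top2a lost its call in 7 of 8 fits, Tpx2 in 3 and Nusap1 in 6. Mitotic genes were dim: their list mean was 3.84 to 4.01 in vehicle and 3.93 to 4.31 in DNFB arrays. The background limits were 3.53 to 3.71, and 4 mitotic genes were at background on all 8 arrays. Replication genes averaged 5.24 to 5.37 and 5.91 to 6.11, with none at background throughout. Whether the low level bears on the mitotic counts was not tested, nor was the difference between these lists. Ccnd1, the cyclin that starts the cycle, rose by 1.46 ± 0.24 and its kinase Cdk4 by 0.87 ± 0.13, in a list of 10 in which 3 rose and 3 fell. Cdkn1b, a cyclin-dependent kinase inhibitor of resting cells, went from 7.44, 8.02, 7.61 and 7.62 to 5.88, 6.15, 6.12 and 6.51 (-1.51 ± 0.17).

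Interferon-stimulated genes rose in 15 and fell in 2 of 34 (median difference 0.42). Zbp1, a nucleic acid sensor, went from 6.11, 5.95, 6.46 and 4.86 to 8.53, 8.46, 8.62 and 7.97 (2.55 ± 0.29), and Irf8 from 6.23, 6.67, 6.36 and 6.43 to 8.71, 8.86, 8.89 and 8.65 (2.35 ± 0.14). Oasl1 rose by 1.62 ± 0.22 and Isg15 by 0.88 ± 0.14, while Rsad2 and Cmpk2 fell by 0.93 ± 0.15 and 0.65 ± 0.12, and Ifit1 did not pass (0.24 ± 0.25). Without vehicle replicate 4, 9 of these genes rose. Of 16 class I and peptide loading genes 4 rose, beside 19.9% of all genes above background, with the peptide transporter Tap1 up by 0.91 ± 0.15. On leaving out vehicle replicate 4, DNFB replicate 1 or DNFB replicate 2 in turn, 2 rose. The count of 4 became 7 when only genes above background were tested and 8 with trended and robust variances. It became 2 after quantile normalization or cyclic loess, over all probe sets of the table or with all 20 arrays, control mice included, in the fit. None of 7 class II genes passed, and H2-Ab1 differed by -0.38 ± 0.43 (adjusted p 0.618).

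Matrix-degrading enzymes and injury matrix proteins rose. Among 24 metalloproteinases and their inhibitors 15 rose and 3 fell. The stromelysin Mmp3 went from 3.43, 3.68, 4.03 and 3.32 to 7.32, 8.17, 7.23 and 7.10 (3.84 ± 0.24), the membrane-bound Mmp14 rose by 1.54 ± 0.13 and Adamts9 by 2.11 ± 0.16. The inhibitors parted: Timp1 went from 4.46, 4.00, 4.46 and 4.68 to 8.03, 8.08, 8.07 and 7.69 (3.57 ± 0.17), while Timp2 fell by 1.04 ± 0.13 and Timp4, given with the capillary genes, by more. Of 21 injury matrix genes 13 rose and 1 fell. Tenascin C (Tnc) stood at 4.74, 4.23, 3.83 and 4.33 and 9.07, 8.85, 8.89 and 8.83 (4.62 ± 0.18), and thrombospondin (Thbs1), the hyaluronan-binding Tnfaip6 and versican (Vcan) rose by 1.62 ± 0.15, 1.67 ± 0.20 and 1.40 ± 0.18. Basement membrane genes divided, 7 higher and 6 lower of 22: the collagens Col18a1, Col4a1 and Col4a2 rose by 1.42 ± 0.20, 0.90 ± 0.12 and 0.81 ± 0.13, and the laminin chains Lama3, Lamb2 and Lama5 fell by 1.39 ± 0.15, 0.95 ± 0.12 and 0.68 ± 0.14. Among 18 integrin subunits 6 rose, led by Itgb3 (1.73 ± 0.14) and its partner Itgav (0.86 ± 0.15), and 4 fell, led by Itga8, from 5.17, 5.12, 5.47 and 5.17 to 3.93, 3.38, 3.27 and 3.64 (-1.68 ± 0.16), and the laminin receptor chain Itga7 (decreased by 1.39 ± 0.16).

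Of the genes named as changed, 25 had 1 to 3 arrays of a group at background, 20 of them 2 or 3. With those arrays set to their limits the rise was 4.45 for Krt16, 4.63 for Krt6a, 4.23 for Csta3, 3.76 for Stfa1, 1.88 for Cxcr2, 1.56 for Itgam, 1.14 for Cxcl11 and 2.57 for Bcat1, each smaller than the fitted one.

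Several genes carry a second probe set, of lower level, and the values here are those of the brighter one. The dimmer probe sets of Slc7a11, Dtx1, Hif1a, Itgav, Angpt1 and Hspb1 lay at or near background and did not pass, with differences of 0.24, -0.41, -0.11, -0.02, -0.23 and -0.41. For Dll1 the probe sets differed in sign and neither passed (0.33 ± 0.18 and -0.31). For C1qtnf9 and Irf8 both probe sets passed in the same direction, but the dimmer one gave a much smaller difference. For Irf8 it rose by 1.11, against 2.35 for the brighter one. The fall of 3.31 given for C1qtnf9 is that of its brighter probe set alone.

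Without vehicle replicate 4, whose labels disagree, 2377 probe sets rose and 2156 fell. Of the 247 genes given as risen or fallen in the text and its closing section, 240 still passed in the same direction in that fit, and 7 did not: Gja5, Hey1, Heyl, Jag1, Nusap1, Top2a and Zbtb46.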

How the data were processed

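The authors deposited log2 values, 1 for each probe set on each array, made by robust multi-array averaging (RMA) in Affymetrix Expression Console per the submitters' processing notes, with versions, options and array annotation not given in the sources used here. RMA subtracts background, forces arrays to one distribution and sums probes on the log2 scale, so a shift of most transcripts would not be seen. No raw intensities were used, the number of arrays limits the precision, and replicate arrays differed by a median of 0.212 to 0.246. Of 41345 probe sets, 23521 had 1 gene symbol, 1814 several and 16010 none. Those with 1 symbol (22180 genes) were fitted with lmFit and eBayes of limma 3.58.1 in R 4.3.3, with 4 arrays a group, no filter on low values and Benjamini-Hochberg adjustment over all of them. The labels do not say that replicates are separate mice, so p-values measure the spread between samples. In data simulated for this comparison, 66 of 23521 probe sets were changed by 2, 67 by 1 and 67 by 0.5 (log2). Of these 97%, 61.2% and 7.46% were called. Far more probe sets passed in the real data (22.3%), where the adjustment is therefore less strict. These shares thus do not give the rate of detection in the real data.

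A gene at or under an array's background limit on all arrays of a group has only a bound there: "at least" is the other group's mean minus the mean of, on each array, the higher of the limit and the value. The brightest probe set stood for a gene. The 66 lists were described by counts and medians beside all genes. Members and lists were chosen with earlier results of these data known. Named by rule were Notch1, Pecam1 and Cdh5, the 12 largest fitted rises and falls, up to 6 members of each list passed in each direction and 3 not passed, and all Notch genes. Csf3, Tnfaip3, Icam1, Lpl, Gpihbp1, Fabp4, Cavin2, Prox1, Klf2, Nqo1, Ahr, Cyp1a1, Hspa5, Ncl, Myc, Ifit1 and the marker genes named at background were added after their values were seen. Promoters are RefSeq's on GRCm38.p6, 20520 of them matched to 16918 genes. Alternatives were filters, normalizations, variance models, a replicate block, other sets of probe sets and arrays, leaving out each array and, added after seeing the data, setting arrays at background to their limits. Figures used matplotlib 3.10.9.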

Additional observations from a re-analysis of the deposited data

Results flagged for a closer look

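Within groups of 4 arrays, 28 of 560 sets of values (2 groups for each gene given in the text) held an array that stood apart by Dixon's test, where chance at 1 in 20 gives 28.0. In the vehicle group, replicate 1 stood apart most often. It was highest for Angpt1 at 5.65 (against 4.26 to 4.48 on the others), Cdh5 at 12.03 (against 11.80 to 11.82 on the others), Col4a1 at 6.93 (against 6.73 to 6.76 on the others) and Ptprb at 10.73 (against 10.39 to 10.43 on the others). The same array was lowest for Fosb at 10.67 (against 10.97 to 11.03 on the others), Gata2 at 8.29 (against 8.58 to 8.61 on the others), Id3 at 9.54 (against 9.86 to 9.91 on the others), Nfkbia at 10.75 (against 11.12 to 11.13 on the others) and Pvr at 6.41 (against 6.72 to 6.74 on the others).

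Vehicle replicate 2 was lowest for Notch1 at 9.47 (against 9.78 to 9.83 on the others). Vehicle replicate 3 was highest for Hyou1 at 6.24 (against 5.69 to 5.74 on the others), Itga8 at 5.47 (against 5.12 to 5.17 on the others) and Slc38a1 at 4.57 (against 4.00 to 4.04 on the others), and lowest for Itga7 at 7.54 (against 7.91 to 7.94 on the others), Nqo1 at 5.70 (against 6.17 to 6.26 on the others) and Tnip1 at 6.65 (against 7.22 to 7.29 on the others). Vehicle replicate 4, the array whose labels disagree, was lowest for Ccl11 at 5.30 (against 5.71 to 5.77 on the others) and Lpl at 5.07 (against 6.11 to 6.32 on the others).

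Among the DNFB arrays, replicate 1 was highest for Aldh18a1 at 7.16 (against 6.87 to 6.91 on the others) and replicate 2 lowest for Pink1 at 5.63 (against 5.95 to 5.96 on the others). Replicate 3 was lowest for Epha4 at 6.21 (against 6.73 to 6.83 on the others), Jag1 at 8.67 (against 9.10 to 9.17 on the others), Ptgis at 5.76 (against 6.67 to 6.85 on the others) and Tek at 8.11 (against 8.34 to 8.36 on the others). Replicate 4 was highest for Acta2 at 9.95 (against 9.58 to 9.64 on the others) and Lama5 at 8.38 (against 8.03 to 8.06 on the others), and lowest for Erg at 8.38 (against 8.85 to 8.93 on the others) and Timp1 at 7.69 (against 8.03 to 8.08 on the others). All values are log2.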

How the results depend on the processing

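The number of probe sets that rose, 2747, and fell, 2495, stayed within 1.5 times of these values under every alternative run, and so did the 839 that rose at least 2-fold. Of those that fell at least 2-fold there were 797, and 1206 when probe sets without a single symbol were tested as well. Leaving out each array gave 2352 to 2545 higher and 2156 to 2271 lower, and 826 to 881 and 788 to 848 at 2-fold. Median centring gave 3025 and 2183, and quantile normalization 2810 and 2340. The replicate numbers were not taken as pairs, since the labels do not say that a number marks a shared mouse. The deviations of same-numbered samples correlated at 0.169, 0.0439, 0.0458 and 0.0781, and those of other pairs at -0.128 to 0.0481. Each DNFB array correlated best with the vehicle array of its number, while vehicle replicate 3 correlated best with DNFB replicate 4. Whether the numbers mark pairs was not tested. With the replicate number as a fixed block 2691 rose and 2472 fell, as a random block 2944 and 2669. Of 247 called genes given, 238 kept direction and call under every alternative that tested them and none turned. The fixed block ended 4 calls (Hey1, Heyl, Nusap1 and Zbtb46) and the random block none. Cmpk2 lost its call with all 20 arrays in the fit (adjusted p 0.0651). That fit takes in the arrays of control mice, which differ from the others in array set and sex.

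Of the 33 genes that did not pass, 7 passed under at least 1 alternative: Il15, Prox1, Sele and Cyp1a1, as given with them, Pecam1 (cyclic loess, adjusted p 0.03, and trended variances, 0.0117), Thbd (cyclic loess, 0.0487) and Adam10 (quantile normalization, 0.0461, cyclic loess and trended variances). Il15 passed under 8 alternatives, Prox1 under 7 and Sele under 5. Setting arrays at background to their limits was chosen after seeing the data. Signs turned only in genes that did not pass. Quantile normalization gave -0.094 for Efnb2, -0.031 for Nfe2l2, -0.074 for Notch1, -0.032 for Notch2 and 0.036 for Rbpj, and median centring 0.039 for Rbpj. Cyclic loess gave -0.020 for Cdh5, -0.086 for Efnb2, -0.057 for Icam1, -0.050 for Nfe2l2, -0.134 for Nfkbia, -0.089 for Notch1, -0.062 for Notch2 and 0.011 for Rbpj. On leaving out arrays the difference ran from -0.098 to 0.030 for Dll4, -0.011 to 0.093 for Efnb2, -0.151 to 0.260 for Hes5, -0.015 to 0.220 for Icam1, -0.008 to 0.085 for Nfe2l2, -0.071 to 0.053 for Nfkbia, -0.039 to 0.085 for Notch1, -0.083 to 0.096 for Notch2, -0.188 to 0.038 for Nrarp and -0.105 to 0.079 for Rbpj. Of 58 list counts of 4 or more, 7 moved by over 1.5 times, 6 of them as given with their lists. The 7th, the vasoactive genes that rose, became 3 after quantile normalization. The causes were not tested.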

Other observations

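Several large changes were of genes outside every list and were chosen here after their values were seen. Olr1, the receptor for oxidised low-density lipoprotein on endothelium, went from 3.01, 3.35, 3.20 and 2.98 in the vehicle arrays to 6.93, 7.97, 7.92 and 6.55 in the DNFB arrays, a rise of at least 3.73. Acod1, which makes the antimicrobial metabolite itaconate, went from 3.24, 3.09, 3.55 and 3.04 to 7.50, 7.98, 6.55 and 7.22, a rise of at least 3.70. It is known from macrophages, and 9 of 18 monocyte and macrophage markers rose on the same arrays, whose part in this was not tested. P2ry6, a receptor for extracellular UDP, rose by 4.13 ± 0.23, Ubd, a ubiquitin-like modifier, by 3.48 ± 0.26 and Bcat1, which transaminates branched-chain amino acids, by 2.88 ± 0.22. The polyamine synthesis enzymes Odc1 and Srm rose by 2.24 ± 0.16 and 2.27 ± 0.17, and mitochondrial superoxide dismutase (Sod2) by 1.91 ± 0.13. Runx1, a transcription factor of blood-forming endothelium and of leukocytes, went from 4.45, 4.07, 5.08 and 5.13 to 6.65, 6.98, 6.41 and 7.08 (2.10 ± 0.24).

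Among falls outside the lists, the leptin receptor (Lepr) went from 9.52, 9.31, 9.56 and 9.64 to 6.77, 7.03, 6.96 and 6.81 (-2.62 ± 0.13) and the drug efflux pump Abcb1a from 8.67, 8.61, 8.52 and 8.77 to 6.23, 6.20, 5.77 and 5.95 (-2.60 ± 0.14). Pde2a, a phosphodiesterase that cGMP activates, fell by 2.15 ± 0.12, the heme transporter relative Flvcr2 fell by 2.46 ± 0.15, and the neonatal Fc receptor Fcgrt, which spares antibodies and albumin from degradation, fell by 1.84 ± 0.14. Zbtb16, a target of glucocorticoids, fell by 2.37 ± 0.35, and Pik3ip1 and Pink1, a restrainer of PI3-kinase and a kinase of mitophagy, fell by 1.79 ± 0.13 and 1.84 ± 0.14. In each of these genes the groups did not overlap.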
